A study of Homo sapiens with 4 samples.

Results

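The genes described here encode the subunits, activators, inhibitor and assembly chaperones of the proteasome. They were taken by name, as the protein-coding genes whose symbol starts with PSMA to PSMG followed by a digit, and 47 of the 16174 genes in the deposited table met that rule. By role, 45 of the 47 are proteasome genes. The remaining pair matched by name only: PSMC3IP, a partner of meiotic recombination proteins, and PSME3IP1, which binds the activator PSME3. PSMA8, PSMB11 and PSMD5 were not analysed here.

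The proteasome degrades proteins tagged with ubiquitin. Its barrel-shaped core particle stacks rings of alpha subunits, which form the gate, around rings of beta subunits, some of which cut peptide bonds. A regulatory particle, built from a ring of ATPases and a set of non-ATPase subunits, binds ubiquitin chains, removes them and threads the substrate into the core. In cells exposed to interferon, alternative catalytic subunits and the PSME1 and PSME2 activator cap are induced and shift the peptides made towards those displayed on MHC class I. Pluripotent stem cells are known for high proteasome activity.

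The study asked what changes in human embryonic stem cells when the long non-coding RNA SNHG26 is silenced. All libraries came from the primed H9 line carrying a doxycycline-inducible dCas9-BFP-KRAB repressor, integrated by a transposase and selected with puromycin. One arm received 4 pooled guide RNAs against SNHG26 and the other control guides, and both arms were given 1 µg/mL doxycycline and harvested after 2 or 3 days. There was 1 library for each arm and day, so each arm had 2 libraries that differed in day. The labels do not say whether these came from separate cultures, so p-values measure the spread between these libraries only. Poly(A) RNA was read as full-length cDNA on a nanopore sequencer after 14 cycles of PCR. Below, the 4 values of a gene are given in the order SNHG26 guides day 2, SNHG26 guides day 3, control guides day 2 and control guides day 3, as TPM, the usual share-of-library unit, unless another unit is named.

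The TPM values are scaled to the genomic span of a gene, introns included, so a gene with long introns has a lower TPM than its number of reads would give per length of mRNA. Because values were whole multiples of 1 read for many short genes, reads could be bounded. In the 4 libraries a gene of 10 kb gained 0.729, 0.653, 0.803 and 0.672 TPM from each read. The number of reads on the whole gene span is an upper bound where a gene has shorter transcripts. The number on its shortest annotated transcript is a lower one. Transcripts came from GENCODE 29, whose spans can differ from those listed. PSMB2, for example, was listed at 41986 bases, while its longest transcript there has 40261. The lower bounds are therefore approximate. Summed over all genes, the upper bounds came to between 947338 and 1220265 reads a library. SNHG26 itself was listed at 0, 0.933, 2.98 and 4.03 TPM, lower in both libraries with its guides (exact two-sided permutation p = 0.333, the smallest that 2 libraries against 2 allow). Of 12 pluripotency markers, 11 were listed and each was above 0 in all 4 libraries, with POU5F1 between 1050 and 1212 TPM. Of 3 mesendoderm genes listed, EOMES and FOXA2 were at 0 in every library and MIXL1 was at 1.98 TPM in the control library of day 3 and 0 in the others. In bulk RNA, fewer cells of a type and less RNA per cell cannot be told apart.

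Proteasome genes were among the more abundant genes of these cells. The median member had a mean of 45.2 TPM over the 4 libraries, against 0.995 TPM for the median of 13693 protein-coding genes listed, and 28 of the 47 lay above their 90th percentile. A mean of at least 100 TPM was reached by 14 members and a mean of at least 10 TPM by 39. All but 1 member, PSMB9, were above 0 in every library. The same gene alone fell under the mean of 1 TPM required for testing, so 46 of 47 entered the tests. Summed over the 47 genes, the level was 5436, 5819, 5242 and 4898 TPM, or 0.568%, 0.610%, 0.547% and 0.512% of all listed TPM. A large part of that sum came from the beta subunits PSMB6 and PSMB4, which together made up between 33.3% and 36.6% of it. Both have short spans, of 2359 and 2378 bases.

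**Figure D1:**
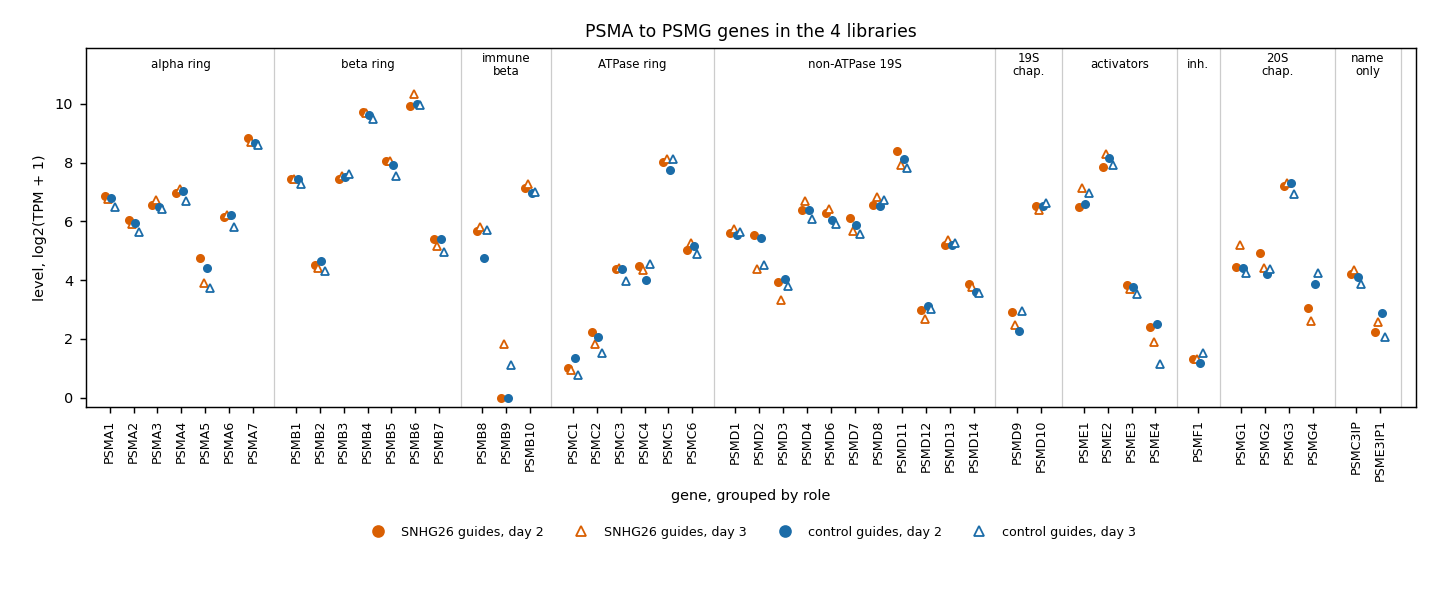
Level of each of the 47 genes in the 4 libraries, as log2(TPM + 1) on the vertical axis, with genes on the horizontal axis grouped by role; circles are day 2, triangles day 3, orange SNHG26 guides and blue control guides (chap., assembly chaperones; inh., inhibitor). Differences between genes of one role are far wider than those between libraries of one gene, and only PSMB9 is at 0 in some libraries.

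The alpha ring, whose 7 listed subunits close the entrance of the core, spanned a 22.9-fold range per base of genomic span. PSMA7 was the highest, at 452, 418, 409 and 386 TPM (chr20:62136733-62143440, minus strand). PSMA5 was the lowest, at 25.8, 13.9, 20.5 and 12.3 TPM (chr1:109399042-109426448, minus strand). The other 5 lay between 48.8 and 135 TPM in every library, so PSMA7 was above every other alpha gene throughout. The spans differ, however: 6708 bases for PSMA7 and 27407 for PSMA5.

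The beta ring carries the proteolytic sites, and its 7 constitutive genes covered a 50.0-fold range of mean TPM. PSMB6, the caspase-like subunit, led at 963, 1299, 1019 and 988 TPM (chr17:4796144-4798502, plus strand). PSMB2, a structural beta subunit, was lowest at 21.9, 20.4, 24.1 and 19.04 TPM (chr1:35599541-35641526, minus strand). PSMB4 was at 848, 830.4, 781 and 711 TPM, and PSMB1 and PSMB3 lay between 152 and 193 TPM. In reads the gap between PSMB6 and PSMB2 was much smaller. PSMB2 was 1 of only 2 members whose values were whole reads in all libraries (within 0.001 of a read), at 126, 131, 126 and 119 reads on its span of 41986 bases. The reads of PSMB6 lay between 100 and 157 at the lower bound and between 299 and 469 at the upper one. The order of the 2 genes in TPM therefore reflects the length each was divided by. The bounds set PSMB6 above PSMB2 in reads only in the SNHG26 library of day 3, at 157.5 or more against 131. Across the 47 members, mean TPM and the upper bound on reads had a Spearman correlation of 0.741, which is a description only, since both come from the same libraries.

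The 3 catalytic sites were each represented by a constitutive and an immune subunit. At the chymotrypsin-like site, PSMB5 stood at 263, 264, 239 and 187 TPM and its immune counterpart PSMB8 at 49.5, 54.5, 25.9 and 51.0 TPM. The constitutive subunit was higher in all 4 libraries, also in reads: at least 239 for PSMB5 in any library and at most 33.1 for PSMB8. At the caspase-like site, PSMB9, the counterpart of PSMB6, was listed at 0, 2.53, 0 and 1.19 TPM (chr6:32844136-32860734, plus strand). Those values correspond to at most 0, 6.43, 0 and 2.93 reads. So PSMB9 was seen only in the 2 day 3 libraries, which were the deeper ones, at a depth of a few reads at most. It overlaps PSMB8 by 544 bases and TAP1 by 8608 bases, both on the opposite strand, and the non-coding PSMB8-AS1 by 2365 bases on its own strand. PSMB8-AS1 was at a mean of 0.687 TPM. Whether the counting used strand is not given in the sources used here. The trypsin-like site was the exception in TPM: PSMB10, the immune subunit, was at 139, 153, 125 and 125 TPM (chr16:67934506-67936864, minus strand), above PSMB7 at 41.5, 34.5, 41.5 and 30.4 TPM. In reads the order of that pair could not be set, because PSMB7 had between 4.7 and 5.9 reads at its lower bound and between 281 and 353 at its upper one, against 20 to 30.2 and 36.6 to 55.2 for PSMB10.

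**Figure D2:**
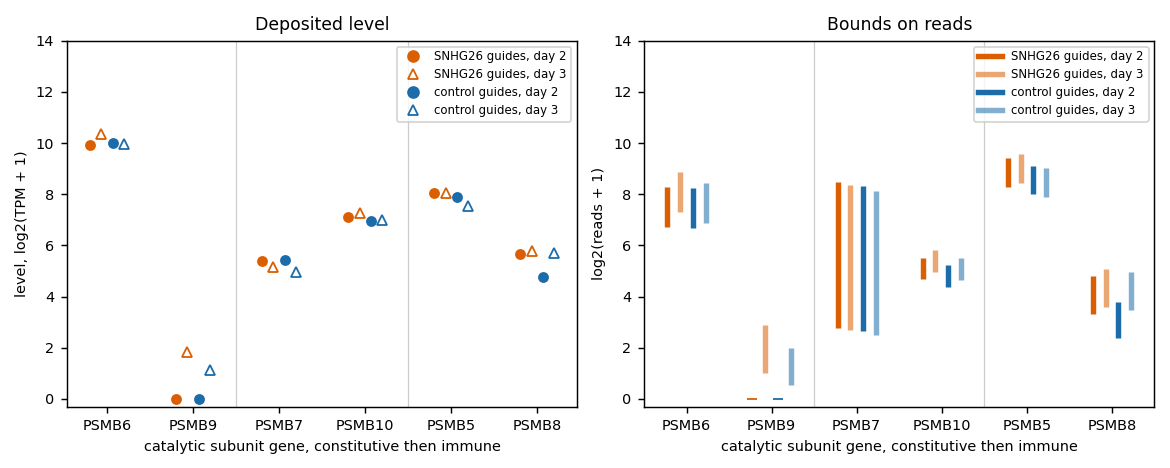
The catalytic beta subunits by site, each constitutive gene beside its immune counterpart: left, the deposited level in each library as log2(TPM + 1); right, the range from the lower to the upper bound on reads, as log2(reads + 1). PSMB5 lies above PSMB8 and PSMB6 above PSMB9 on both scales, while the read ranges of PSMB7 and PSMB10 overlap.

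PSMB10 and PSMB9 thus differed widely in level although both are textbook interferon-induced subunits, as is the activator gene PSME2 at 229, 311, 283 and 241 TPM. Their promoters were read from RefSeq windows (GRCh38.p14) and searched on both strands for the core of the interferon-stimulated response element, read as GAAA, any 2 bases and GAAA. The 150 bases before each RefSeq start are shown 5′ to 3′ on the gene's strand, with matches in capitals, to set side by side the 2 genes with a match and the low gene without one; they were chosen after the matches were known. The windows are chr16:67936851-67937000 (minus) for PSMB10, chr14:24146611-24146760 (minus) for PSME2 and chr6:32854042-32854191 (plus) for PSMB9.
PSMB10: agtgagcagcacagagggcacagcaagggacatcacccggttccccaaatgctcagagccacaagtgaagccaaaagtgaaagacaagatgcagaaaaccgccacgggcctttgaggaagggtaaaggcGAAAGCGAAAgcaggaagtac
PSME2: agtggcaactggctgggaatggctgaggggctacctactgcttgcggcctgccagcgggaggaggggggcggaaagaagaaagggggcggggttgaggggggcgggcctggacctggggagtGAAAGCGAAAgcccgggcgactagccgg
PSMB9: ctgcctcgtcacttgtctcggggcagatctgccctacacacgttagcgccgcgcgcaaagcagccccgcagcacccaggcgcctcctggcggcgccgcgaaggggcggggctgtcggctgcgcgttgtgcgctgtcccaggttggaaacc
The match began 21 bases before the start of PSMB10 and 28 bases before that of PSME2. That no match was found for PSMB9 says only that these letters are not in its window. Over the full windows, 250 bases before to 50 after the start, 39 of the 45 proteasome genes had an entry and 7 of them (17.9%) held it: PSMA4, PSMB4, PSMB8, PSMB10, PSME1, PSME2 and PSMG4. The share was 4.16% among 15843 protein-coding genes with a window. The levels of those 7 genes ranged widely, from PSMG4 at a mean of 10.9 TPM to PSMB4 at 793 TPM.

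Genes of MHC class I antigen processing, the pathway these immune subunits serve, ranged from 0 to a mean of 437 TPM. Of 19 such genes all were listed and 11 had a mean of at least 1 TPM. The peptide transporter gene TAP1, next to PSMB9, was at a mean of 1.66 TPM, and HLA-B was at 0 in every library. CALR, an endoplasmic reticulum chaperone, was at 464, 547, 431 and 306 TPM. HLA-C, a class I heavy chain gene, was at 210.1, 250.1, 244 and 212 TPM. Between the arms the 11 had a median log2 change of 0.02, with 7 higher and 4 lower with SNHG26 guides, and none passed an adjusted p of 0.05.

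The ATPase ring unfolds substrates, and its 6 genes showed the widest range of any role, 245-fold per base of span. PSMC5 was highest, at 259, 279, 212 and 278 TPM (chr17:63827152-63832026, plus strand), with 58.7% of its span overlapped by FTSJ3 on the opposite strand. PSMC1 was lowest, at 1.02, 0.914, 1.55 and 0.712 TPM (chr14:90256527-90275429, plus strand). PSMC2 was between 1.89 and 3.75 TPM, and the other 3, PSMC3, PSMC4 and PSMC6, between 14.8 and 37.0 TPM. The ring holds its 6 ATPases in equal numbers, yet PSMC1 had at most 2.65, 2.65, 3.65 and 2.00 reads. In both libraries with SNHG26 guides its value equalled exactly 1 read on the 7143 bases of PSMC1-204, a transcript annotated as retaining an intron (chr14:90256528-90263670, GENCODE 29). The 2 control values did not equal such a read, alone or with whole reads on the full span. Counted on the full span, 1 such read is worth 2.65. The control library of day 3, at 2.00, was too low to hold a whole one. The control library of day 2, at 3.65, leaves room for one. Its value would equal 1 such read plus 1 read on a span slightly shorter than the full one. On that shorter span, 2 reads would give the value of the control library of day 3. Other combinations were not searched, so whether the control library of day 2 held such a read was not tested.

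A processed pseudogene of PSMC1, PSMC1P1 on chr3:68635705-68637024 (plus strand, 1320 bases, intronless), was counted at 15, 11, 7 and 16 whole reads. That is 49 reads over the 4 libraries, against an upper bound of 10.9 for PSMC1. The pseudogene differed from the coding sequence of PSMC1 at 1 of 1320 aligned bases, an identity of 99.9%. The difference was T885A, counted from the first base of the start codon, and turned codon 295 from TAT into the stop codon TAA. The stretch around it, coding bases 825 to 945 of PSMC1-201 and chr3:68636529-68636649 of GRCh38, is shown because it holds the only base by which a read of the coding part could be assigned to one copy, given in capitals.
PSMC1: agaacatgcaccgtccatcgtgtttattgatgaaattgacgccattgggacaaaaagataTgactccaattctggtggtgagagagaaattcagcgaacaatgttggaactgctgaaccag
PSMC1P1: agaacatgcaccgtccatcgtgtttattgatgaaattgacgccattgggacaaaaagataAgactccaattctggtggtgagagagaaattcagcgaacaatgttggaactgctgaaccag
Reads confined to the coding part could thus be assigned by that base only. Reads that reach beyond it were not examined, since the deposited values are totals per gene. How reads were divided between the 2 copies is not known, and the level of PSMC1 is uncertain. NRDE2, which covers 7570 bases of the PSMC1 span on the opposite strand, adds to that uncertainty.

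A second ATPase gene had a counted copy too. PSMC2P1 (chr3:132175402-132176711, plus strand) had 4, 5, 2 and 3 whole reads at 92.9% identity, while PSMC2 had at most 21.5, 16.6, 16.6 and 11.7. Unlike PSMC1, the parent could thus still hold the larger number. Of the other autosomal processed copies listed, PSMA2P3, PSMD8P1, PSME2P1 and PSMB3P1 had at most 1 read in any library, and PSMD4P1 had 0 in all 4. Their parents had upper bounds of 106 reads or more in every library. PSMC1 was the only one of these 7 parents with fewer reads, at its upper bound, than its copy.

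**Figure D3:**
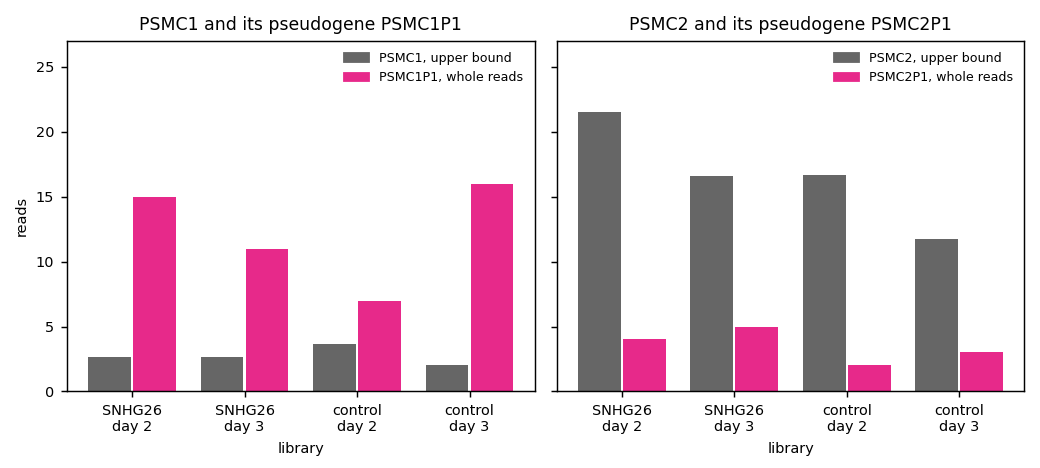
Reads in the 4 libraries (vertical axis) for PSMC1 and PSMC2, as upper bounds in grey, and for their processed pseudogenes, as whole reads in pink. PSMC1P1 exceeds PSMC1 in every library, with 7 to 16 reads against at most 3.65, and PSMC2P1, with 2 to 5 reads, is below the upper bound of PSMC2.

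Among the 11 non-ATPase subunits of the regulatory particle, PSMD11, a lid subunit, was highest at 335, 243, 279 and 225 TPM (chr17:32444379-32483319, plus strand). PSMD12, another lid subunit, was lowest at 6.88, 5.35, 7.69 and 7.08 TPM (chr17:67337916-67366605, minus strand). The other 9 lay between those levels in every library. Read counts for PSMD11 were loosely bounded, between 26.5 and 36.4 reads at the lower bound and from 1303 to 1790 at the upper one. PSMD3, also of the lid, gave whole reads in all libraries: 34, 24, 33 and 33 (14.5, 9.14, 15.5 and 12.9 TPM).

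Other members help to build the particle. PSMD10, a chaperone of the regulatory particle, was at 90.4, 81.9, 91.4 and 98.0 TPM, and its partner in that role, PSMD9, at 6.56, 4.62, 3.79 and 6.74 TPM. PSMG3, which pairs with PSMG4 to assist alpha ring assembly, was at 146, 157, 158 and 119.6 TPM. PSMG4 itself was at 7.31, 5.07, 13.5 and 17.8 TPM, although the 2 proteins act as a dimer. Their spans differ, however: 3674 bases for PSMG3 and 71971 for PSMG4. In reads, the upper bounds were 73.6, 88.5, 72.2 and 65.4 for PSMG3. For PSMG4 they were 72.1, 55.8, 121 and 191, with lower bounds of 6.1, 4.7, 10.1 and 16.0. The gap in TPM therefore reflects the length each was divided by, and the bounds do not fix the part of the reads. PSMG1 and PSMG2, the other dimer, had means of 23.8 and 21.6 TPM. Of the activators, PSME2 was highest and PSME4, the large nuclear activator PA200, lowest at 4.36, 2.74, 4.73 and 1.20 TPM on a span of 106925 bases. PSME3, the nuclear relative of PSME1, was between 10.5 and 13.4 TPM. PSMF1, named as an inhibitor, was at 1.47, 1.51, 1.27 and 1.87 TPM. The pair matched by name only was at 17.5, 19.3, 16.3 and 13.7 TPM (PSMC3IP) and at 3.69, 4.99, 6.31 and 3.21 TPM (PSME3IP1).

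Between SNHG26 guides and control guides, no proteasome gene passed the test. With limma on log2(TPM + 1), 0 of 46 members reached an adjusted p of 0.05, as did 0% of the 8274 genes tested. At an unadjusted p under 0.05 there was 1 of 46, PSMG4, against 4.07% of all genes. Values of the 2 arms did not overlap for 15 members: 12 were higher with SNHG26 guides, beside 16.1% of all genes, and 3 were lower, beside 13.2%. The 12 were PSMA3, PSMA7, PSMB1, PSMB4, PSMB5, PSMB10, PSMC3IP, PSMD4, PSMD6, PSMD14, PSMG1 and PSMG2, and the 3 were PSMD10, PSMD12 and PSMG4.

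Small differences leaned to one side. The median log2 difference over the 46 genes was 0.15, with 36 higher and 10 lower with SNHG26 guides, beside 0.04 over all genes tested, with 4407 higher and 3867 lower. Above a floor of 50 TPM, the 22 members left had a median of 0.17, with 20 higher and 2 lower. All 1145 genes above that floor had a median of 0.11, and their split each way was not counted. Under quantile normalization the split was 32 higher and 14 lower with a median of 0.09, and under median ratio scaling 35 and 11 with 0.11. Of all genes, 51.7% and 50.8% were higher under these 2 scalings, with medians of 0.02 and 0.01. On day 2 the median was 0.06, with 27 genes higher, or 58.7% beside 46.1% of all genes, and 19 lower, beside 48.9%. On day 3 it was 0.19, with 37 higher, or 80.4% beside 51.6%, and 9 lower, beside 44.1%. All 7 alpha ring genes had a higher mean with SNHG26 guides, under both of those scalings too, and all 7 were higher on day 3, by log2 differences from 0.11 to 0.43. On day 2, 5 of the 7 were higher. The 4 activators and the 2 immune beta genes tested were likewise all higher in the mean and on day 3. On day 2, 1 activator and the 2 immune beta genes were higher. Every other role had at least 1 gene lower in the mean. The median depended on 1 library: without the control library of day 3, it was 0.034 over the 46 genes. That library had the lowest summed level, 4898 TPM. It also had the highest summed level of the fibroblast or feeder markers, of which 3 of 6 were listed: 66.3, 66.3, 65.1 and 96.3 TPM. Most of that was THY1, at 58.4, 58.3, 54.4 and 84.4 TPM. COL1A1 was at 4.16, 2.98, 3.21 and 4.21 TPM and COL1A2 at 3.79, 5.01, 7.47 and 7.72 TPM. So the rise in the sum was that of THY1. The part of the low sum or of these markers in the result was not tested. The genes are not independent replicates, so these counts describe 4 libraries.

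**Figure D4:**
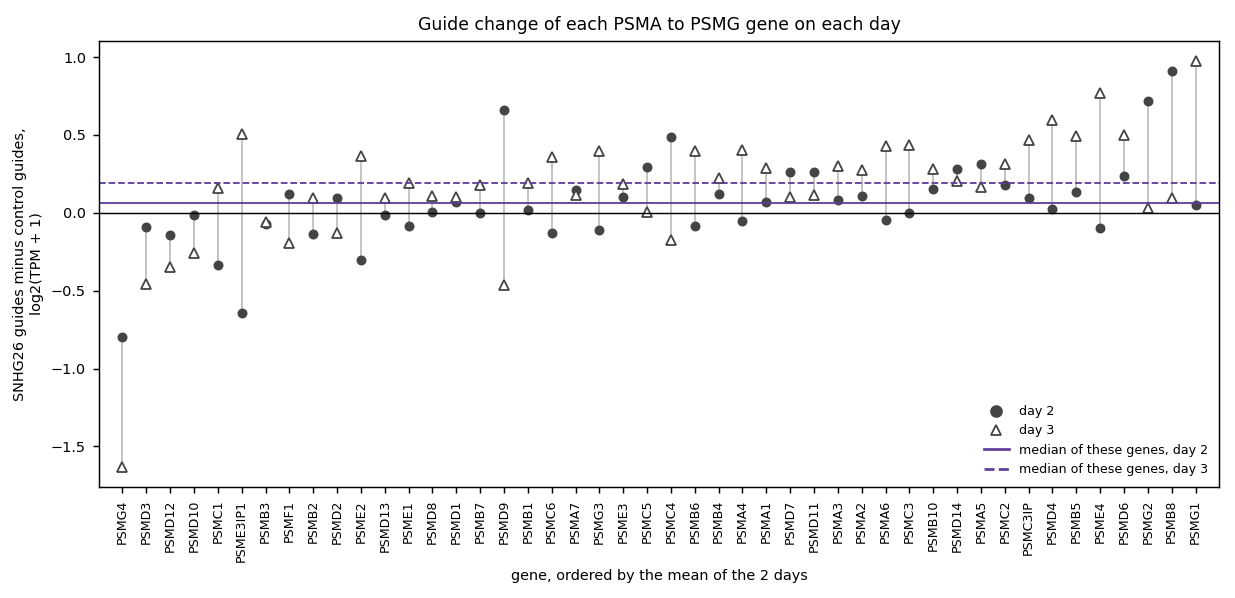
Difference between SNHG26 guides and control guides in log2(TPM + 1) for each of the 46 tested genes, on day 2 (filled circles) and day 3 (open triangles), ordered by the mean of both days; purple lines mark the medians over these genes, 0.06 on day 2 (solid) and 0.19 on day 3 (dashed). PSMG4 lies apart from the rest at -0.80 and -1.63, and the 2 days of a gene often fall on different sides of 0.

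PSMG4 (chr6:3231403-3303373, plus strand) showed the largest difference of any member. Its level was 7.31 and 5.07 TPM with SNHG26 guides, a mean of 6.19 ± 1.58 (SD, n = 2), and 13.5 and 17.8 TPM with control guides, a mean of 15.6 ± 3.08. Both control libraries were above both SNHG26 libraries, with the means 2.53-fold apart. The log2 difference was -0.80 on day 2 and -1.63 on day 3, or -1.22 on average (SE 0.35). Its limma p of 0.0238 became 0.935 after Benjamini-Hochberg adjustment over all genes. The lower bounds on its reads were 6.1, 4.7, 10.1 and 16.0 and the upper ones 72.1, 55.8, 121 and 191, so the counting error could not be fixed. On the opposite strand it overlaps TUBB2B by 328 bases. TUBB2B is abundant, at a mean of 424 TPM, and differed between the arms by a log2 value of 0.10. PSMG3, the dimer partner of PSMG4, differed by -0.11 on day 2 and 0.39 on day 3.

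Among members with a mean of at least 5 TPM, those higher with SNHG26 guides on both days by the widest margin, taken as the smaller of the 2 differences, were PSMD6, PSMD14 and PSMA5. PSMD6, a lid subunit (chr3:64010550-64024010, minus strand), was at 76.6, 84.4, 64.9 and 59.6 TPM. Its arms did not overlap, with a log2 difference of 0.37 (SE 0.21, limma adjusted p = 0.935). PSMD14, the deubiquitinase that removes ubiquitin chains from substrates, was at 13.8, 12.6, 11.2 and 10.9 TPM, again without overlap, with a log2 difference of 0.24. For PSMA5 the arms overlapped, because its day 3 values were low in both arms, and its difference of 0.24 turned to -0.18 without the SNHG26 library of day 2 and to -0.11 without the control library of day 3. On the lower side, PSMD12 followed PSMG4 with a log2 difference of -0.24 and no overlap. Its difference was -0.40 without the SNHG26 library of day 2 and -0.089 without that of day 3. PSMD3 differed by -0.27, with overlapping arms, and turned to 0.03 without the SNHG26 library of day 3, which held 24 reads against 33 or 34 in the other 3.

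Some differences were larger on 1 day than on the other. PSMB8 differed by 0.91 on day 2 and 0.10 on day 3, since its control library of day 2, at 25.9 TPM, was low. PSMG1 differed by 0.05 on day 2 and 0.97 on day 3. The difference between the days was tested for every gene in a crossed contrast. With 1 library for each arm and day, its spread was taken from the differences between arms and between days. The test is therefore weaker for a gene that differs by arm or day. This contrast passed a limma adjusted p of 0.05 for 0 of 46 members, beside 0.0967% of all genes. At an unadjusted p of 0.05 it was 0 of 46, beside 3.52%.

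Partners of the proteasome with other names were taken as a list. Of 33 genes for ubiquitin, shuttle factors, deubiquitinases and proteasome transcription factors, 32 were listed and 24 tested. Their median log2 difference was 0.17, with 18 higher and 6 lower with SNHG26 guides, and it was 0.05 on day 2 and 0.24 on day 3. None passed the adjusted test. Among the most abundant were the ubiquitin genes UBB, at 2065, 2424, 1991 and 1928 TPM, and RPS27A, at 829, 848, 799 and 805 TPM. The subunits SEM1 and ADRM1, which the naming rule did not take, were chosen here after their values were seen. SEM1 was at 197, 212, 177 and 169 TPM and ADRM1 at 81.2, 94.0, 79.9 and 60.3 TPM, both higher with SNHG26 guides in all pairs of libraries. These 2 subunits did not pass either (limma adjusted p = 0.935 for each).

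The best known regulator of proteasome genes is NFE2L1, which drives their transcription through antioxidant response elements when proteasome activity falls short. NFE2L1 was at 2.53, 1.51, 2.74 and 6.34 TPM, lower in both SNHG26 libraries, with a log2 difference of -0.82 (SE 0.52, limma adjusted p = 0.935), of which day 2 had -0.084 and day 3 -1.55. NFE2L1 has a span of 13217 bases, so it rests on few reads, and its difference came mostly from the control library of day 3. Its relative NFE2L3 was at 20.2, 7.47, 32.7 and 42.8 TPM, also without overlap, with a log2 difference of -1.52 (SE 0.54). Its limma p of 0.0462 became 0.935 after adjustment. Both were named after their values were seen. The core of the element, TGACNNNGC, was present on either strand in 14 of the 39 proteasome windows (35.9%), beside 17.9% of all windows. It was among 11 motifs searched, and every match is also a match of the looser TGANNNNGC, which 25 of the 39 held, beside 49.6%. The ETS core TTCCGG was in 21 of 39 (53.8%) beside 26.6%, the CCAAT box in 19 (48.7%) beside 42.1% and the GC box GGGCGG in 28 (71.8%) beside 64.3%. PSMD9 is shown because both of its matches, 149 and 102 bases before the start and one on each strand, fall in the printed bases, chr12:121888640-121888789 (plus strand, RefSeq, GRCh38.p14), with matches in capitals.
PSMD9: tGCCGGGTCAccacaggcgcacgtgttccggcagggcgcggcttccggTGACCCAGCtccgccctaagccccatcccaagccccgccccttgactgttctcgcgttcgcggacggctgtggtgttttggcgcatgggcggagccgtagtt
PSMD9 was at 6.56, 4.62, 3.79 and 6.74 TPM, with a log2 difference of 0.66 on day 2 and -0.46 on day 3. A match is a description of letters and says nothing of binding in these cells.

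Day 3 was compared with day 2 over both arms. Again 0 of 46 members passed an adjusted p of 0.05, beside 0.0363% of all genes. At an unadjusted p under 0.05 there were 3, PSMD2, PSMA5 and PSME1, or 6.52% beside 6.61%. The days did not overlap for 21 tested members: 8 were higher on day 3, beside 17.1% of all genes, and 13 were lower, beside 18.4%. The median log2 difference was -0.09, beside 0.01 over all genes. In the control arm 32 of 46 were lower on day 3, or 69.6% beside 50.9%, and all 7 alpha ring genes were among them. In the SNHG26 arm 22 were lower, or 47.8% beside 45.4%. Without the control library of day 3 the median was 0.040, on the other side of 0.

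The members named next have a mean of at least 5 TPM and are ranked by the smaller of the differences in the 2 arms. PSMD2, the large base subunit that docks shuttle factors (chr3:184299198-184309050, plus strand), came first. It was at 45.2 and 42.3 TPM on day 2 and at 19.97 and 21.9 TPM on day 3, with SNHG26 and control guides in that order. The values of the 2 arms lay close together on each day, and day 2 was 2.09-fold above day 3. The log2 difference was -1.03 (SE 0.20), and it lay between -1.09 and -0.96 when any 1 library was left out. The limma p of 0.00776 became 0.406 after adjustment over all genes. Its reads numbered at most 61.0, 30.1, 51.9 and 32.2, and at least 5.0, 2.5, 4.2 and 2.6. PSMA5 followed, at 25.8 and 20.5 TPM on day 2 and 13.9 and 12.3 TPM on day 3, a log2 difference of -0.77 (SE 0.25). Here a limma p of 0.0393 became 0.713. PSMD11 came after these by the same rule, with -0.39. Below that level, PSME4 differed by -0.95 on average, -0.52 in the SNHG26 arm and -1.38 in the control arm, and PSMC2 by -0.47.

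On the higher side stood PSME1, which forms the activator cap together with PSME2 (chr14:24136163-24138967, plus strand). It was at 89.5 and 95.2 TPM on day 2 and at 140.1 and 123 TPM on day 3. Both day 3 libraries were above both of day 2, with a log2 difference of 0.50 (SE 0.17) and between 33.2 and 60.2 reads at the upper bound. Adjustment took its limma p from 0.0431 to 0.737. PSME2 differed by 0.44 in the SNHG26 arm and by -0.23 in the control arm. PSMD8, a lid subunit, was higher on day 3 by 0.22, and PSMB8 by 0.55, of which the SNHG26 arm had 0.14 and the control arm 0.95. PSMB10, the other immune subunit tested, differed by only 0.07, with 0.14 in the SNHG26 arm and 0.01 in the control arm. PSMB9 appeared on day 3 alone, as given above, but was below the level tested. The day 3 libraries were also the deeper ones, with 1220265 (SNHG26) and 1135936 (control) reads at the upper bound. The day 2 libraries had 1044055 and 947338. The part of depth in where PSMB9 was seen was not tested. The 11 MHC class I genes tested had a median of 0.32 between days, with 8 higher and 3 lower on day 3, and none passed the adjusted test. Of all genes tested, 50.7% were higher on day 3, with a median of 0.01. Of 6 immune markers 2 were listed, with a summed level of 14.7, 28.9, 14.5 and 18.2 TPM: CD74 at 10.5, 27.7, 14.5 and 16.9 TPM and HLA-DRA at 4.24, 1.27, 0 and 1.30 TPM. Their part in these values was not tested.

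**Figure D5:**
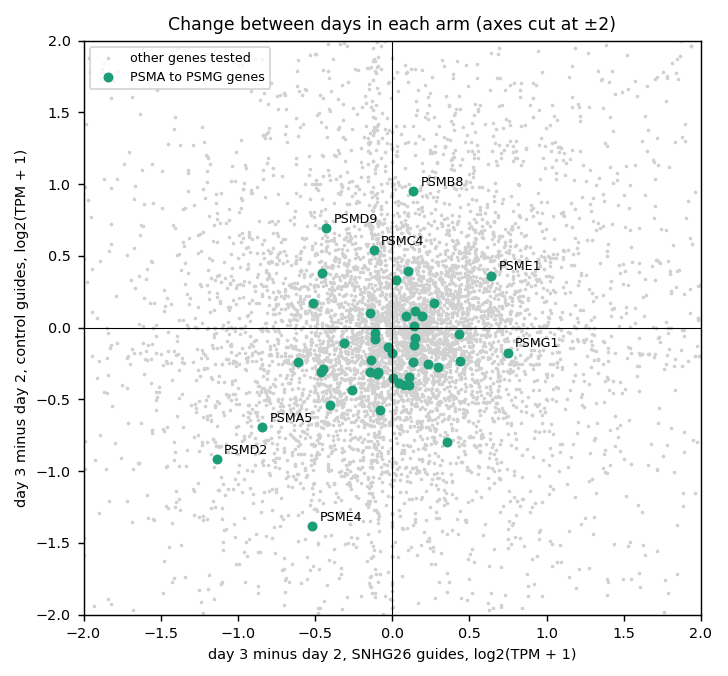
Difference between day 3 and day 2 in log2(TPM + 1) with SNHG26 guides (horizontal axis) and with control guides (vertical axis), for the 46 tested members (green) and the other genes tested (grey); axes end at 2 in either direction, so genes beyond are not drawn. PSMD2 and PSMA5 lie low and PSME1 high in both arms, while PSMB8 lies high with control guides and PSMG1 with SNHG26 guides.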

How the data were processed

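Nanopore cDNA libraries of the 4 groups were analysed from one deposited table. The values are TPM that the authors deposited per gene. Per the submitters' processing notes, reads were handled with minimap2 2.24-r1122 and the build GRCh38; the counter and the annotation release are not given in the sources used here. No column of another sample was present. Multiplying TPM by the listed span gave whole multiples of a constant (within 0.001 of a read) for 75.2% to 76.1% of genes under 3000 bases with a value, which set the worth of 1 read; over all genes with a value the share was 23.1% to 23.9%, so no count test was run. Intervals from reads would cover counting error only.

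Tests covered the 8274 genes averaging 1 TPM or more. They used limma 3.58.1 (R 4.3.3), with lmFit and a two-sided trended eBayes on log2(TPM + 1) and Benjamini-Hochberg adjustment at 0.05. Fold changes on this scale understate those of low genes. The script was tested on simulated data. Contrasts were guides, days and their crossed difference. Values in every library are given for the catalytic subunits, the highest and lowest gene of each role, the 3 each way that differed in the same direction on both days (or in both arms) with the largest smaller difference and at least 5 TPM, and genes listed at 0; from the partner and MHC lists, the 3 most abundant, of which some are not reported here. Members and lists were chosen with earlier results of these data known. Transcript spans and pseudogene alignments used GENCODE 29; promoters used RefSeq. Overlapping genes were taken from the table's coordinates. A processed copy on a sex chromosome was left out. Alternatives covered the pseudocount, filter, scaling, variance model, replicate block and each library left out. Tables were handled in Python 3.11.15 with pandas 2.3.3.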

Additional observations from a re-analysis of the deposited data

How the results depend on the processing

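No member passed an adjusted p of 0.05 in any contrast under any setting run. Over all genes, the guide contrast gave 0 calls in the reported fit and in every alternative but 1: 14 genes when a floor of 50 TPM was joined with the replicate block. The day contrast gave 3 calls as reported, and 3 with a floor of 5 TPM or median ratio scaling; it gave 0 with the replicate block, an untrended eBayes, quantile scaling, a pseudocount of 0.1 or 5, no filter, a floor of 50 TPM or of 20 reads on the span, 35 with 50 TPM and the replicate block, and 0 to 0 with a library left out. The crossed contrast gave 8 as reported, 14 with a pseudocount of 0.1, 13 with a floor of 5 TPM, 7 with quantile or median ratio scaling, and 0 with a pseudocount of 5, no filter, at least 50 TPM with or without the replicate block, no trend, the replicate block or at least 20 reads; it could not be run on 3 libraries. The cause of these shifts was not tested. The replicate number of a library stands for its day of harvest, so the replicate block was the day in the guide and crossed contrasts; in the day contrast it was the arm. Over 8274 genes, the deviations of same-day libraries correlated at 0.05. The members' median guide difference ran from 0.034 to 0.24 and their median day difference from -0.19 to 0.040 with a library left out, and the log2 ratio of summed TPM, 0.15, from 0.10 to 0.20. That ratio was 0.14 without PSMB6 and 0.11 with median ratio scaling. Of 27 named genes, 10 kept their sign in the guide contrast and 15 in the day contrast under every setting. The sign changed with quantile normalization for PSMD6 between days (-0.0065) and between guides for PSMD8 (-0.011), PSME1 (-0.013) and PSME2 (-0.030), with median ratio scaling for PSME2 (-0.0076), and with a pseudocount of 5 for PSMG4 between days (0.0078). With a library left out, guide differences that changed sign ranged as follows: PSMA5 -0.18 to 0.66, PSMB2 -0.18 to 0.14, PSMB6 -0.0595 to 0.37, PSMB7 -0.13 to 0.31, PSMC1 -0.37 to 0.20, PSMC5 -0.0506 to 0.34, PSMD11 -0.0426 to 0.42, PSMD2 -0.59 to 0.55, PSMD3 -0.58 to 0.0298, PSMD8 -0.0791 to 0.19, PSMD9 -0.25 to 0.44, PSME1 -0.27 to 0.37, PSME2 -0.19 to 0.25, PSME3IP1 -0.46 to 0.33, PSME4 -0.36 to 1.03, PSMF1 -0.20 to 0.13 and PSMG3 -0.0578 to 0.34. Day differences did so for PSMB10 -0.0666 to 0.22, PSMB5 -0.42 to 0.0761, PSMB6 -0.00426 to 0.39, PSMC3IP -0.29 to 0.18, PSMD10 -0.15 to 0.11, PSMD14 -0.21 to 0.0637, PSMD6 -0.24 to 0.26, PSMD9 -0.20 to 0.46, PSME2 -0.0792 to 0.29, PSME3IP1 -0.54 to 0.10, PSMG3 -0.34 to 0.0521, PSMG4 -0.85 to 0.78 and SNHG26 -0.35 to 1.64. Depth limits PSMC1, PSMB9, PSMC2, PSMF1, PSMC3IP and the regulator NFE2L1, which rest on few reads.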
